A study of Homo sapiens with 2 samples.

Results

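The electron transport chain and the ATP synthase were examined on 2 arrays of K562, a human leukaemia line driven by the fusion kinase BCR-ABL1. One culture was grown with erythropoietin (EPO), the hormone that sustains red cell precursors. The title of the other names no EPO, and the growth protocol is the basis for calling it grown without EPO. Both were exposed to the BCR-ABL1 inhibitor imatinib at 2 µM for 6 h, so neither array shows cells free of the drug. Total RNA of each culture went onto a single Affymetrix Gene 1.0 ST array, which reads whole transcripts. Replicates are missing, so no error can be given, nothing was tested, and the precision is limited by the number of arrays. Members were the genes whose symbol starts with NDUF followed by A, B, C, S or V, UQCR, COX4 to COX8 or ATP5, together with the 4 SDH symbols, on probes that carry exactly 1 symbol in the platform annotation. This gave 97 probes and 89 of the 18377 genes measured: 42 of complex I, 3 of complex II, 8 of complex III, 17 of complex IV and 19 of complex V.

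The respiratory chain sits in the inner mitochondrial membrane. Complexes I and II pass electrons from NADH and succinate to coenzyme Q, complex III passes them to cytochrome c and complex IV to oxygen. Complexes I, III and IV pump protons while doing so, and complex V, the ATP synthase, lets the protons flow back through its membrane rotor and makes ATP in its F1 head. In red cell precursors these mitochondria also make haem, and they are lost as the cell matures.

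The deposited values are read as log2, although no label or header states the base, and they are centred on an unknown baseline of each probe. A value therefore gives a deviation from that baseline and not how abundant a transcript was. For this reason the defining markers of K562 could not be read as present or absent. Of 9 such erythroid markers 6 were measured, with differences from -0.040 for the embryonic globin HBZ to 0.81 for the transcription factor TAL1. In such bulk samples, fewer cells of a type and less RNA per cell cannot be told apart. All differences below subtract the array without EPO from the array with EPO on the log2 scale, and a gene was called past 2-fold at a difference of 1 or more in size.

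Of the 89 genes, 76 encode structural subunits. The other 13 were the 7 complex I assembly factors NDUFAF1 to NDUFAF7, the ATP synthase inhibitor ATP5IF1, the supercomplex factor COX7A2L, the subunit g copy ATP5MGL, the pseudogenes ATP5F1EP2 and UQCRBP1, and NDUFV1-DT, a non-coding transcript that runs away from NDUFV1. The fourth SDH gene, some further nuclear subunits and the mitochondrially encoded subunits were not analysed here. No filter on low values could be set on centred values, so all 89 genes were counted. Of these, 8 (8.99%) passed 2-fold upward with EPO, against 6.19% of all genes measured. A single one (1.12%), ATP5ME, passed it downward, against 0.898% of all genes. Both shares lie close to those of all genes. The direction of the smaller differences was less even, with 63 of 89 (70.8%) above 0 against 45.4% of all genes. The median difference was 0.27 over the members and -0.047 over all genes. At 1.5-fold, 27 members were higher and 3 lower, against 18.1% and 4.65% of all genes.

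These counts hold for the values as deposited and depend on how the arrays are scaled to each other. A class of 218 other genes of cellular machinery (proteasome, mitochondrial ribosome, nuclear pore, RNA polymerase II, spliceosome and translation initiation) had a median difference of 0.53, above that of the members. With this median subtracted, the members had a median of -0.26, and 1 was past 2-fold higher and 3 lower, against 0.522% and 9.08% of all genes. After subtraction of the median of gene families that most cells keep silent (-0.33), the members had a median of 0.60, and 20 were past 2-fold higher and 1 lower, against 15.3% and 0.55% of all genes. The sign of the members' median thus rests on the scaling.

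**Figure D1:**
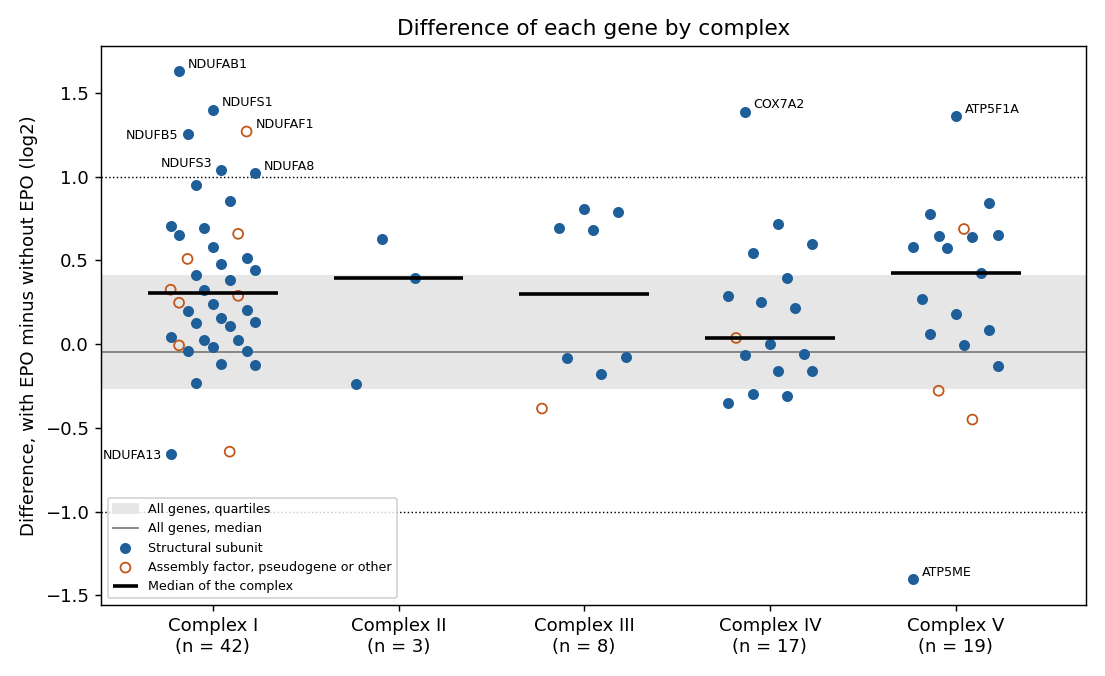
Difference between the arrays, with EPO minus without EPO (log2, vertical axis), for each of the 89 genes, by complex. Filled points are structural subunits, open points are other genes that carry the symbols, black bars are medians of the complexes, the grey band and line are the quartiles and median of all 18377 genes, and dotted lines mark 2-fold. Complexes I, II, III and V have medians from 0.30 to 0.42 and complex IV stands at 0.037, while the genes of each complex spread widely around them.

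The complexes differed little in their medians compared with the spread of genes within each. The median difference was 0.31 in complex I, 0.39 in complex II, 0.30 in complex III, 0.037 in complex IV and 0.42 in complex V. The lowest and highest gene of complex I stood at -0.66 and 1.63, and those of complex V at -1.40 and 1.36. Without its 6 tissue isoforms the median of complex IV was 0.29. With structural subunits alone the median of complex III was 0.68, since the pseudogene UQCRBP1 left the set of 8.

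Values lay farther from the baseline on the array without EPO. The members spread with a standard deviation across genes of 0.131 on the array with EPO and 0.411 on the array without EPO, much like all genes, at 0.128 and 0.429. With EPO every member lay between -0.32 and 0.33. Without EPO the members ran from -1.33 to 1.09, 6 of them at or below -1 and 1 at or above 1. In 67 of 89 members (75.3%) the value without EPO lay farther from the baseline than the value with EPO, as in 82.6% of all genes. A total of 57 members (64.0%) lay above the baseline with EPO and below it without EPO, against 38.8% of all genes.

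**Figure D2:**
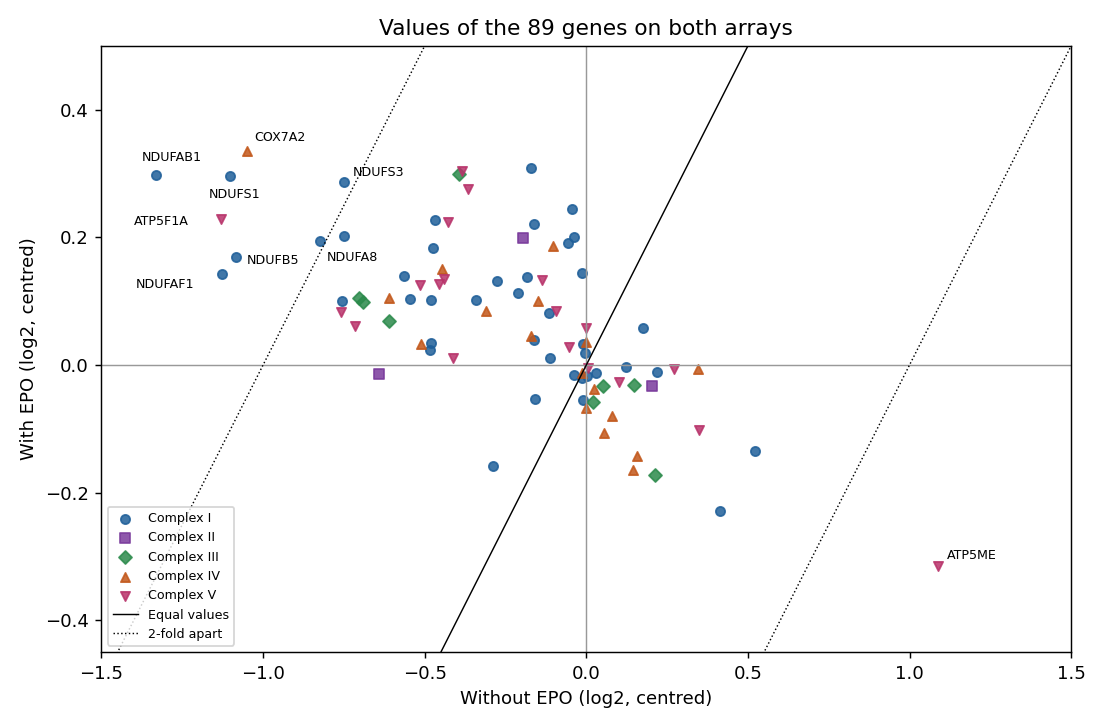
Log2 values of the 89 genes centred on the authors' baseline, with EPO (vertical axis) against without EPO (horizontal axis, drawn to a coarser scale). The solid line marks equal values and the dotted lines 2-fold. Named genes are the 9 past 2-fold: 8 lie to the upper left, with values without EPO from -1.33 to -0.75, and ATP5ME lies alone at the lower right at 1.09 without EPO.

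Complex I, the NADH dehydrogenase, held 6 of the 8 genes past 2-fold higher and 42 of the 89 members. The 6 are 14.3% of its genes, against 6.19% of all genes. NDUFAB1, the mitochondrial acyl carrier protein that is also a subunit of both arms of complex I, stood at 0.30 with EPO and at -1.33 without EPO. Its difference of 1.63 (3.09-fold higher with EPO) ranked at place 52 from the top of the 18377 genes. It was the 1 member that stayed 2-fold higher once the machinery median had been subtracted, at 1.10.

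The matrix arm takes electrons from NADH and carries them over iron-sulphur clusters. Its 6 measured core subunits had a median difference of 0.60. NDUFS1, the largest of the iron-sulphur subunits, had 0.30 with EPO and -1.10 without EPO, a difference of 1.40 (2.64-fold). NDUFS3, a core subunit of the module that binds coenzyme Q, had 0.29 with EPO and -0.75 without EPO, a difference of 1.04 (2.05-fold). Both lay above the baseline with EPO and well below it without EPO. NDUFV1, which holds the flavin that accepts electrons from NADH, had 0.23 with EPO and -0.47 without EPO, and its partner NDUFV2 had 0.035 with EPO and -0.48 without EPO. Their differences were 0.69 and 0.52. The last core pair, the iron-sulphur subunits NDUFS7 and NDUFS8, was nearly equal on the arrays: NDUFS7 had -0.013 with EPO and 0.029 without EPO, and NDUFS8 had -0.015 with EPO and -0.039 without EPO. Among the 9 accessory subunits of the matrix arm the median difference was 0.32, from -0.23 for NDUFS6 to 0.95 for NDUFA9. The probes of NDUFS4, an accessory subunit, disagreed, with differences of 0.63 and 0.017.

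The membrane arm carries the proton pumps, whose core subunits come from mitochondrial DNA. Its 18 measured nuclear subunits had a median of 0.14, and 14 of them lay above 0. NDUFB5, an accessory subunit at its distal end, had 0.17 with EPO and -1.08 without EPO, a difference of 1.25 (2.39-fold). NDUFA8 had 0.19 with EPO and -0.82 without EPO, a difference of 1.02 (2.03-fold) that just passed the threshold. NDUFB9 followed with 0.10 with EPO and -0.76 without EPO, a difference of 0.86. In contrast, NDUFA13, also known as the cell death regulator GRIM-19, had -0.13 with EPO and 0.52 without EPO, and its difference of -0.66 was the lowest of complex I. The 11 NDUFB genes ranged from -0.13 for NDUFB7 to 1.25 for NDUFB5.

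Assembly factors bring the parts of complex I together and do not stay in it. The 7 NDUFAF genes had a median of 0.32 and 6 lay above 0. NDUFAF1, which acts in building the membrane arm, had 0.14 with EPO and -1.13 without EPO, a difference of 1.27 (2.41-fold). NDUFAF7, a methyltransferase that acts in assembly, stood at 0.66, and NDUFAF2 at -0.0080, the lowest of the 7. The value of NDUFAF2 averages 2 probes of opposite sign, at -0.12 and 0.11. The non-coding NDUFV1-DT went the other way from NDUFV1, with -0.23 with EPO and 0.41 without EPO, a difference of -0.64.

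Complex II, succinate dehydrogenase, links the chain to the tricarboxylic acid cycle. SDHA, the flavoprotein that oxidises succinate, had 0.20 with EPO and -0.20 without EPO. SDHC, which anchors the complex in the membrane and binds coenzyme Q, had -0.014 with EPO and -0.64 without EPO. The other anchor, SDHD, had -0.032 with EPO and 0.20 without EPO. The anchors thus differed in direction, at 0.63 for SDHC and -0.24 for SDHD, with SDHA at 0.39, and none passed 2-fold. The value of SDHA comes from 1 probe. Probes that it shares with its pseudogenes were not counted and stood at 0.018 and -0.27.

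Among the genes counted, complex III, the cytochrome bc1 complex, fell into a high and a low set. UQCRC1 and UQCRC2 encode the paired core proteins on its matrix side. UQCRC1 had 0.069 with EPO and -0.61 without EPO, and UQCRC2 had 0.10 with EPO and -0.70 without EPO. Their differences, 0.68 and 0.81, lay close to those of UQCRH, the hinge protein that helps dock cytochrome c, at 0.79, and of UQCRB, a subunit near the coenzyme Q site, at 0.69. The small accessory subunits UQCR10, UQCR11 and UQCRQ stood between -0.18 and -0.079. UQCRQ, the lowest of these 3, had -0.032 with EPO and 0.15 without EPO. None of the structural subunits counted lay between the sets. CYC1, the cytochrome c1 subunit that the symbols leave out, did so, at 0.32. The pseudogene UQCRBP1 stood at -0.39, with -0.17 with EPO and 0.21 without EPO.

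Complex IV, cytochrome c oxidase, has subunits that occur as isoforms, one made in most tissues and another known from muscle, lung or testis. The 10 subunits of general use had a median difference of 0.34, and 8 of them lay above 0. COX7A2, the general form of subunit VIIa, had 0.33 with EPO and -1.05 without EPO, a difference of 1.39 (2.61-fold). Next came COX7B at 0.71, COX7C at 0.60 and COX4I1, the general form of subunit IV that adjusts the enzyme to ATP, at 0.54. COX4I1 had 0.033 with EPO and -0.51 without EPO. COX5A and COX5B stood at -0.068 and 0.22. COX5A had -0.067 with EPO and 0.00047 without EPO, and COX5B had 0.046 with EPO and -0.17 without EPO. The other general subunit below 0 besides COX5A was COX6B1, which faces cytochrome c, with -0.14 with EPO and 0.16 without EPO, a difference of -0.30.

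The 6 tissue isoforms had a median of -0.16 and a narrow range, from -0.35 for COX4I2, the lung form of subunit IV, to 0.00086 for COX7B2, known from testis. COX4I2 had -0.0067 with EPO and 0.34 without EPO, opposite to its general partner COX4I1. COX7A1, the heart and muscle form of VIIa, had -0.16 with EPO and 0.14 without EPO, a difference of -0.31 against 1.39 for COX7A2. The pair of subunit VIa, COX6A2 of muscle and the general COX6A1, stood at -0.060 and 0.25. COX6B2, known from testis, stood at -0.16 and its general form COX6B1 at -0.30, so here the tissue form was the higher of the pair. COX8C and COX8A stood at -0.16 and 0.40, and COX7B2 and COX7B at 0.00086 and 0.71. COX7A2L, a relative of VIIa that joins complexes III and IV into supercomplexes, was nearly equal on the arrays, at 0.037 with EPO and 0.00009 without EPO.

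**Figure D3:**
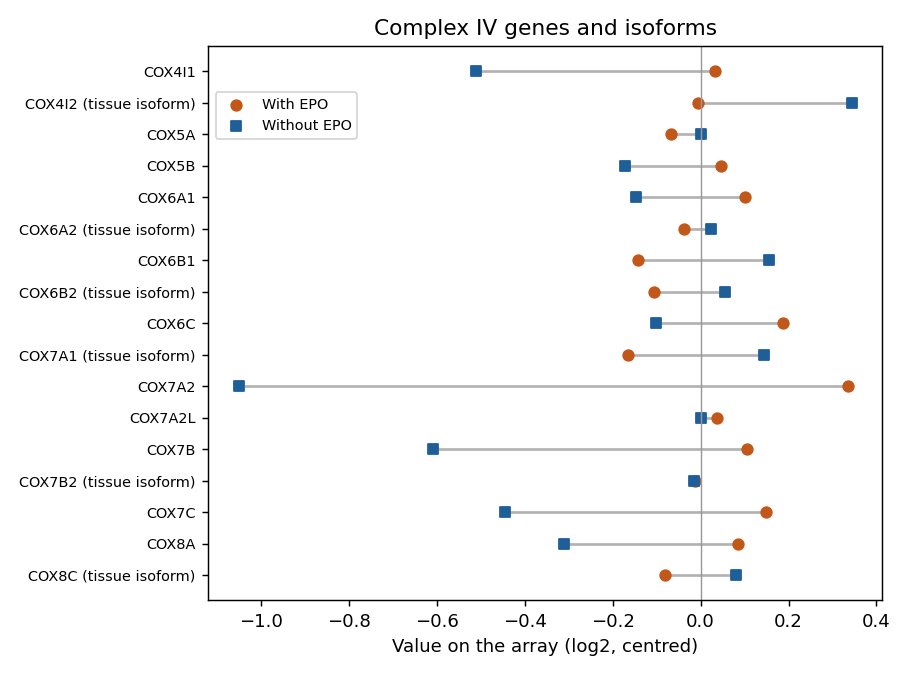
Log2 values of the 17 complex IV genes on the array with EPO (circles) and the array without EPO (squares), centred on the authors' baseline. COX7A2 spans the widest gap, with 0.33 with EPO and -1.05 without EPO, and 5 of the 6 tissue isoforms lie lower with EPO than without it.

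Markers of muscle and testis, and genes of silent families, were set beside the tissue isoforms. Of 6 muscle and heart markers 5 were measured, with differences from -0.23 to 0.23 and 4 of 5 below 0. All 4 testis markers lay below 0, from -0.40 to -0.10. So did the 4 lymphoid markers measured, from -0.67 to -0.20, and 4 of 5 monocyte and granulocyte markers, from -0.77 to -0.14. The other of these 5, LYZ, was past 2-fold higher, with 0.24 with EPO and -0.81 without EPO, a difference of 1.05. Low values were thus not particular to markers of muscle and testis. Of all genes, 45.4% lay above 0. A class of 482 genes that most cells keep silent (receptors for odours, taste and pheromones, beta-defensins and keratin-associated proteins) had a median of -0.33, below that of the isoforms (-0.16), while all genes had a median of -0.047. Their part in the values of the isoforms was not tested.

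Complex V, the ATP synthase, had its highest differences in the alpha and beta subunits of the F1 head. ATP5F1A, the alpha subunit, had 0.23 with EPO and -1.13 without EPO, a difference of 1.36 (2.56-fold). ATP5F1B, the catalytic beta subunit, had 0.083 with EPO and -0.76 without EPO, a difference of 0.84. The shaft that turns inside the head is made of ATP5F1C, the gamma subunit, which had 0.14 with EPO and -0.44 without EPO, and ATP5F1D, the delta subunit, which had 0.059 with EPO and -0.0012 without EPO. The 4 genes thus ran from 1.36 for the alpha subunit over 0.84 and 0.58 to 0.060 for the delta subunit. The epsilon subunit, ATP5F1E, shares its probe with a readthrough gene and was not counted. That probe stood at -0.52.

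The peripheral stalk holds the head still against the rotor. ATP5PB, its main membrane-bound subunit, stood at 0.78, ATP5PD at 0.58, ATP5PF at 0.42 and ATP5PO, which joins the stalk to the head, at -0.0085. Subunit c, which forms the rotor ring, comes from 3 genes that differ in their import signals and give the same mature protein. ATP5MC1 had 0.28 with EPO and -0.37 without EPO, ATP5MC2 had 0.085 with EPO and -0.092 without EPO, and ATP5MC3 had -0.027 with EPO and 0.10 without EPO. The differences of the 3 genes were 0.64, 0.18 and -0.13.

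Among the small membrane subunits, some hold ATP synthase dimers together. ATP5ME, subunit e, had -0.32 with EPO and 1.09 without EPO, the lowest value with EPO and the highest value without EPO of the 89 members. Its difference of -1.40 (2.65-fold lower with EPO) ranked at place 92 from the bottom of all genes. Its partner in the dimer contact, ATP5MG or subunit g, had 0.22 with EPO and -0.43 without EPO, a difference of 0.65 in the other direction. ATP5MJ, ATP5MF and ATP5MK stood at 0.64, 0.27 and 0.081. ATP5MGL, a gene copy of subunit g, stood at 0.69, close to ATP5MG. Near-identical copies of this kind may share signal, which was not tested. ATP5IF1, the inhibitor that stops the enzyme from burning ATP, had -0.0064 with EPO and 0.27 without EPO, a difference of -0.28. The pseudogene ATP5F1EP2 stood at -0.45.

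Many genes of the chain carry sites for the nuclear respiratory factor NRF1 and for ETS proteins such as GABP in their promoters. These promoters, from RefSeq (GRCh38.p14), run from 250 bases before to 50 bases after the annotated start, and 65 of the 76 structural subunits had one. The ETS letters CCGGAAG stood on either strand of 19 of the 65 (29.2%), against 10.7% of 27305 promoters and 14.6% of the 14208 promoters of measured genes. The NRF1 core letters GCATGCGC stood in 12 (18.5%), against 3.27% of all promoters and 4.19% of those of measured genes, and the full NRF1 palindrome, the core with GC added before it, in 4 (6.15%), against 1.36% and 1.80%. The palindrome contains the core once on each strand. Promoters are shown for the highest and the lowest member, and for the highest and the lowest of the 4 structural subunits with the full palindrome. Each is printed 5′ to 3′ on the strand of its gene. Capitals mark NRF1 core and ETS letters on either strand, and overlapping matches run together.
NDUFAB1, chr16:23596267-23596566 (minus strand): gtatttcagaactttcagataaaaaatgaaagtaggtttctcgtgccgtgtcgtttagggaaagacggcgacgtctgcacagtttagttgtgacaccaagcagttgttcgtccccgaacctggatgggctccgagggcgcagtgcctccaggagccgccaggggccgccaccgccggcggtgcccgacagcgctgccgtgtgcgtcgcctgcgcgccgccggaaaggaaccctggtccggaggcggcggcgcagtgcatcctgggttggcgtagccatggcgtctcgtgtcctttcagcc
ATP5ME, chr4:674227-674526 (minus strand): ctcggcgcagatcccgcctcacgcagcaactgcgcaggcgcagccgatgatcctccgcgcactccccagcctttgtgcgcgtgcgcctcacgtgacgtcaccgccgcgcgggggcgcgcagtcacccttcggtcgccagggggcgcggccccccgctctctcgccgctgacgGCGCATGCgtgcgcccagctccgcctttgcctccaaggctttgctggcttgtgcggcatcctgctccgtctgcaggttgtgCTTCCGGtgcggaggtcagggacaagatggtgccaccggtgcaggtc
NDUFA8, chr9:122159730-122160029 (minus strand): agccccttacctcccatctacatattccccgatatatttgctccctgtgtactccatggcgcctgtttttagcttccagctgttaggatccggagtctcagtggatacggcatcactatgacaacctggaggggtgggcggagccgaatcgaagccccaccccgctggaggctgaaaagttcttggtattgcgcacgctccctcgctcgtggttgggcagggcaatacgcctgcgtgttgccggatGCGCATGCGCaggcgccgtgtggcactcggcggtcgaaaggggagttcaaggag
SDHD, chr11:112086623-112086922 (plus strand): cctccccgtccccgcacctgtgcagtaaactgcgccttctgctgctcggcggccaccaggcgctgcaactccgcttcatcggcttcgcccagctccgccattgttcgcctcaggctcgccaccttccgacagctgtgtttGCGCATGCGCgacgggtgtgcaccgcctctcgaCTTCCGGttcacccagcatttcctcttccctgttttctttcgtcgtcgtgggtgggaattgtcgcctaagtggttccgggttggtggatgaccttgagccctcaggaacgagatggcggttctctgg
NDUFAB1, at 1.63, holds neither motif in this window, whereas ATP5ME, at -1.40, holds 1 match of each. NDUFA8, at 1.02, and SDHD, at -0.24, both hold the palindrome, as do ATP5F1C at 0.58 and NDUFB4 at 0.12, so that 3 of the 4 lay above 0. Of the 256 measured genes with the palindrome, 67.2% lay above 0. The median difference was 0.20 over the 12 subunits with the core and 0.38 over the 53 without it, but 0.35 over the 4 with the full palindrome and 0.25 over the 61 without that. For the ETS letters it was 0.25 over the 19 with them and 0.28 over the 46 without. Over all measured genes the median was 0.25 with the core and -0.027 without it, 0.29 with the palindrome and -0.022 without it, and 0.31 with the ETS letters and -0.054 without them. A match of letters is not a binding site, and these medians had no test.

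The position of the genes on the chromosomes, examined after their values were seen, showed low differences on chromosome 19. Its 11 structural subunits had a median of -0.12, 3 of them lay above 0 and 0 were past 2-fold. The highest was NDUFA7 at 0.24, and the lowest were NDUFA13 at -0.66, COX7A1 at -0.31 and COX6B1 at -0.30. The 11 include the tissue isoforms COX7A1 and COX6B2, the latter at -0.16. The 65 structural subunits on other chromosomes had a median of 0.41, with 52 above 0 and 7 at least 2-fold higher. Among all measured genes, 2.14% of the 1306 on chromosome 19 were at least 2-fold higher against 6.50% of the rest, and the medians were -0.084 and -0.044. The shares above 0 were 41.5% on chromosome 19 and 45.7% on the rest. Over all genes, chromosomes 11, 20 and 21 had lower shares above 0, at 39.8%, 40.4% and 30.2%. Their medians were also lower, at -0.12, -0.10 and -0.19, so these 2 measures were not particular to chromosome 19.

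Gene span, the distance from the first to the last base of the gene in RefSeq, also moved with the difference. The median span was 9.59 kb over the structural subunits. The 38 subunits longer than this had a median difference of 0.41, with 6 of the 7 subunits that were at least 2-fold higher, and the 38 others had a median of 0.10. All genes longer than 9.59 kb had a median of 0.019, with 7.96% at least 2-fold higher, and the others had a median of -0.17, with 1.58% at least 2-fold higher. The rank correlation of span and difference was 0.35 across the 76 subunits and 0.21 across 18345 genes. These are correlations across genes on the same 2 arrays, and genes are not independent replicates.

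Lists of genes that serve the chain also had positive medians on the values as deposited, in all 9 lists. These are not wholly apart from the complexes above. The complex I assembly list holds 7 of the 89 members, and the electron carrier list holds CYC1 of complex III. With the machinery median subtracted, 5 of the 9 list medians turned negative and protein import stood at 0.00094. The counts below are to be read against all genes, of which 6.19% were at least 2-fold higher and 45.4% above 0. The tricarboxylic acid cycle feeds electrons to complexes I and II. Its list, which also holds genes outside the cycle (PDHA1, PDHB, PDHX, DLAT and PC), had a median of 0.85. All 17 measured genes of the list lay above 0, with 6 at least 2-fold higher. PDHA1, PDHB and DLAT were among these 6, at 1.14, 1.11 and 1.04. The highest were IDH3A, a subunit of the NAD-linked isocitrate dehydrogenase, at 1.28, and DLST of the oxoglutarate dehydrogenase complex at 1.26, and the lowest were IDH2 at 0.026 and PC at 0.044. Electron carriers and coenzyme Q synthesis had a median of 0.38, with 3 of 18 at least 2-fold higher: COQ10B at 1.36, ETFDH, which passes electrons from fat oxidation to coenzyme Q, at 1.29 and COQ5 at 1.09. COQ4 and PDSS1 were the lowest, at -0.20 and 0.049. CYC1, the cytochrome c1 of complex III that the symbols leave out, stood at 0.32, and cytochrome c itself, CYCS, at 0.38.

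The lists of assembly factors had medians from 0.50 to 0.55. The complex I list had a median of 0.50 over 15 genes, 7 of them members, with 4 at least 2-fold higher: NDUFAF1 and ACAD9 at 1.27 and 1.23, and TIMMDC1 and FOXRED1 at 1.14 each. NDUFAF2 and COA1 were its lowest, at -0.0080 and 0.17. Complex IV assembly had a median of 0.55 over 19 genes, from SCO2 at -0.14 and COA3 at -0.13 to FASTKD2 at 1.20 and LRPPRC, which protects mitochondrial messenger RNA, at 1.27. Complex II and III assembly had a median of 0.50 over 9 genes, from SDHAF3 at -0.076 and UQCC3 at 0.036 to TTC19 at 1.18 and BCS1L, which inserts the Rieske protein into complex III, at 1.21. The 4 ATP synthase factors had a median of 0.54, from ATPAF1 at 0.26 and ATPAF2 at 0.53 to TMEM70 at 0.56 and TMEM242 at 0.60.

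Protein import had a median of 0.53, with 5 of 19 at least 2-fold higher, among them the receptors TOMM20 at 1.27 and TOMM70 at 1.16. TIMM10 and TIMM17A were the lowest, at -0.19 and 0.076. The list of ATP and phosphate carriers also holds VDAC channels and the creatine kinase CKMT2. It had a median of 0.52 over 7 genes, from CKMT2 at -0.036 to VDAC3 at 1.10. Of the carriers, SLC25A5 stood at 0.36, SLC25A4 at 0.59 and SLC25A3, the phosphate carrier, at 0.71. Factors of mitochondrial transcription and biogenesis had the lowest median of the 9 lists, 0.27 over 19 genes. MTERF2 and MTERF3 stood at 1.01 and 0.94, while the coactivator PPARGC1A and ESRRG stood at -0.28 and -0.24. NRF1 was nearly equal on the arrays, at -0.0026 with EPO and 0.0026 without EPO.

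**Figure D4:**
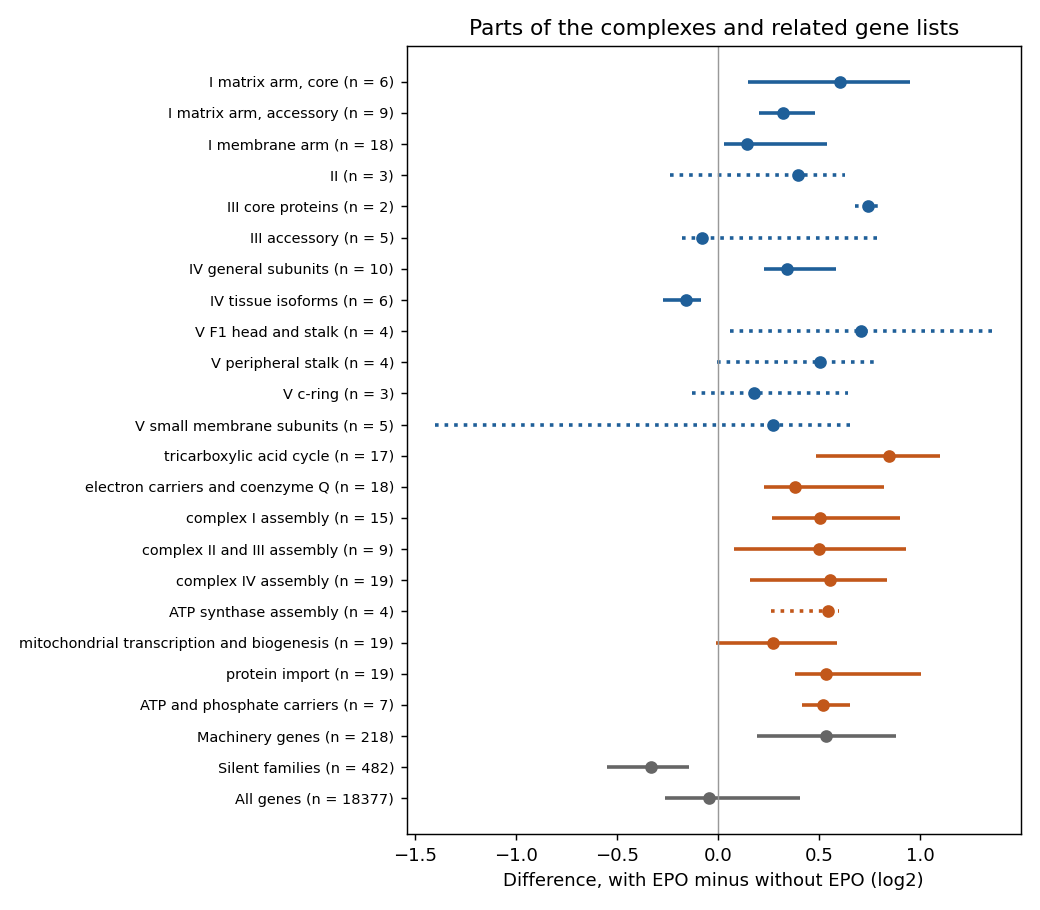
Median difference, with EPO minus without EPO (log2), of parts of the complexes (blue), related mitochondrial lists (orange) and reference classes (grey), with quartiles as solid bars, or the whole range as a dotted bar for fewer than 6 genes. The tricarboxylic acid cycle list has the highest median (0.85) and the silent families the lowest (-0.33), and the machinery class stands at 0.53.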

How the data were processed

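Expression was measured on 2 Affymetrix Gene 1.0 ST arrays, 1 per group, per the labels' protocols. The authors deposited 28869 probe values per array, read here as log2. No label or header states the background correction, summarisation, normalization or software. The authors' deposited values are centred on an unknown baseline. When the arrays are added, 631 probes (2.19%) had values that cancel to 0 within 1e-05, which does not identify that baseline. Probes were named through the platform annotation, in which 19310 had 1 symbol, 1752 several and 7807 none listed. Only the first entered, and probes of a gene were averaged (8 members had several). All 89 member symbols matched RefSeq (GRCh38.p14), unchanged. With 1 array per group, nothing was tested, and a 2-fold difference was the call. The genes named are those past 2-fold, complex II, the 3 extremes of each other complex, core subunits, isoform pairs, non-subunits and the 2 extremes of each list. Others were chosen after their values were seen. Members and lists were chosen with earlier results of these data known. Other scalings, probe rules, memberships, thresholds and the mean were tried, and a median counted as moved beyond 0.1. Python 3.11.15, NumPy 2.4.6, pandas 2.3.3 and matplotlib 3.10.9 were used, and averaging and calls were tested on simulated data.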

Additional observations from a re-analysis of the deposited data

How the results depend on the processing

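With 1 array per group the scaling between the arrays could not be checked, and it decided every sign of the complex medians. With the machinery median (0.53) subtracted, the medians were -0.23 in complexes I and III, -0.14 in II, -0.50 in IV and -0.11 in V, and -0.26 over all members, with 1 gene past 2-fold higher and 3 lower (9.08% of all genes were lower, 0.522% higher). The lower genes were ATP5ME, NDUFA13 and NDUFV1-DT. The list medians were then 0.32 for the tricarboxylic acid cycle, -0.15 for electron carriers, -0.028 for complex I assembly, -0.031 for complex II and III assembly, 0.019 for complex IV assembly, 0.010 for ATP synthase assembly, -0.26 for biogenesis factors, 0.00094 for protein import and -0.011 for carriers. With the silent family median (-0.33) subtracted, the complexes stood at 0.64 (I), 0.73 (II), 0.63 (III), 0.37 (IV) and 0.76 (V), all members at 0.60, and 20 members were 2-fold higher (15.3% of all genes). The lists then stood, in the same order, at 1.18, 0.71, 0.84, 0.83, 0.88, 0.88, 0.60, 0.87 and 0.85. As means, complex II was 0.26, IV 0.18, V 0.29 and electron carriers 0.52. Structural subunits alone moved complex III to 0.68, and leaving out tissue isoforms moved IV to 0.29. At 1.5-fold, 27 members were higher and 3 lower. The other 85 comparisons stayed within 0.1, or 1.5 times for counts. Taking the probe with the smallest difference moved 3 of 89 genes by over 0.1 and turned NDUFAF2 to 0.11. It could not touch the 9 genes past 2-fold, which have 1 probe each. Brightness could not be read from centred values, so dim genes could not be set aside. No paired analysis was possible because each group has 1 array.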

Other observations

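Outside the comparison, 9 probes carried a symbol of the same pattern together with other symbols, and the symbols of UQCRH and SDHA were the only ones of the 89 members among them. The probe of ATP5F1E, the epsilon subunit of the F1 head, and of a readthrough gene had -0.084 with EPO and 0.44 without EPO, a difference of -0.52, below all 4 F1 genes of the comparison. The probe of NDUFC2, a complex I membrane arm subunit, and its readthrough with KCTD14 had 0.23 with EPO and -0.40 without EPO, a difference of 0.63. A probe listed for KCTD14 and the same readthrough gene stood at -0.47. The probes shared by SDHA and its pseudogenes had differences of 0.018 and -0.27, against 0.39 for the probe of SDHA alone. The probe shared by UQCRH, UQCRHL and GNA13 stood at 0.39, against 0.79 for the probe of UQCRH.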
